A study of Homo sapiens with 15 samples.

Results

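The myeloma immunotherapy surface targets are 9 genes whose protein products are bound, or have been proposed to be bound, by antibodies or engineered T cells in multiple myeloma: TNFRSF17, GPRC5D, CD38, SDC1, SLAMF7, FCRL5, TNFRSF13B, LY9 and CD48. They were chosen by name, with earlier results of these data known. All 9 were found among the 20468 genes of the deposited tables, 8 of them under the current symbol. SDC1 was found by its Entrez gene ID 6382 because its symbol is written there in lower case. RNA-seq was done on MM.1S and RPMI8226, established human myeloma cell lines, grown for 48 h alone or with HS5, an established human bone marrow stromal cell line. Each line was sampled as a monoculture (MONO), as cells of the upper transwell, kept by a membrane from the stroma and myeloma cells below (TSW), and as cells of that lower chamber in contact with the stroma (CO). There were 3 libraries per condition for MM.1S and 2 per condition for RPMI8226, 15 in all. The labels number these libraries as repeats and do not say whether they were separate cultures, so p-values measure the spread between these libraries only.

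Several features limit these groups as models. Each line stands for 1 tumour and HS5 for the stroma. According to the study's methods, cells were sorted as CD90 negative and CD38 positive before RNA was made, so the CD38 protein was also a sorting gate. The methods describe trypsin for the cocultures only, so detachment and coculture cannot be told apart. In these bulk libraries, fewer cells that carry a transcript and less transcript per cell cannot be told apart.

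Plasma cells keep a characteristic set of surface receptors after they have lost most B cell antigens, which is what makes these proteins useful as therapeutic targets. BCMA, encoded by TNFRSF17, and TACI, encoded by TNFRSF13B, bind the survival ligands BAFF and APRIL, and BCMA can be shed from the membrane by gamma-secretase. SLAMF7, LY9 and CD48 belong to the SLAM family of immune cell receptors, SDC1 is the heparan sulfate proteoglycan CD138, CD38 is an ectoenzyme that consumes NAD, FCRL5 is an Fc receptor-like protein, and GPRC5D is an orphan G protein-coupled receptor.

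Gene positions are those of RefSeq on GRCh38.p14. Levels are given as RPKM, read pairs counted relative to transcript length in kilobases and to the size of the library, which allows comparison between genes. The whole numbers of read pairs behind the RPKM values could be recovered, and totals on genes ran from 9008909 to 19050586 per library. MM.1S MONO replicate 1 was the shallowest library and stood apart from the others of its group: its root mean square log2 difference over tested genes was 0.434 from replicate 2 and 0.435 from replicate 3, against 0.259 between those replicates. Named calls in MM.1S that end without this library, and the members' values it moves most, are given with and without it. Tests used limma on log2(RPKM + 1) over all genes whose RPKM averaged 1 or more across the libraries of a line, with Benjamini-Hochberg adjustment. A call needed an adjusted p below 0.05 together with a fold change above 1.5. Whether groups of so few libraries overlap is a description and not a test, and its share over all genes was not taken. Fold changes on this scale understate changes of genes with low levels. By this filter, 8 of the 9 members were tested in MM.1S and 5 of the 9 in RPMI8226.

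In MM.1S MONO the members spanned a wide range. TNFRSF17 at 172.7 ± 38.0 RPKM (SD, n = 3) and SDC1 at 163.7 ± 18.8 RPKM stood highest and overlapped, followed by CD48 at 119.6 ± 2.10, SLAMF7 at 94.1 ± 6.61, TNFRSF13B at 83.1 ± 34.1 and CD38 at 55.0 ± 14.5 RPKM. LY9 at 20.3 ± 1.5 and GPRC5D at 11.0 ± 0.711 RPKM were lower, and FCRL5 was near the detection floor at 0.111 ± 0.0238 RPKM. SLAMF7 overlapped TNFRSF13B, and TNFRSF13B overlapped CD38, while the other neighbours in this order did not overlap. In RPMI8226 MONO, SDC1 at 71.8 ± 1.92 RPKM (SD, n = 2) and TNFRSF17 at 70.9 ± 2.92 RPKM overlapped at the top, and TNFRSF13B at 20.1 ± 0.440, CD38 at 16.0 ± 0.0294 and CD48 at 10.6 ± 0.413 RPKM followed without overlap. LY9 at 0.407 ± 0.0491, SLAMF7 at 0.0503 ± 0.00606, GPRC5D at 0.0413 ± 0.0584 and FCRL5 at 0.0273 ± 0.00329 RPKM were all below 1, and the last 3 overlapped in order. With stroma the order changed. SDC1 was highest in TSW and CO of both lines, and TNFRSF17 moved from the top pair to the fifth place in MM.1S TSW, the sixth in MM.1S CO and the fifth in both RPMI8226 conditions. In MM.1S TSW its libraries overlapped those of CD38, its neighbour in the order.

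**Figure D1:**
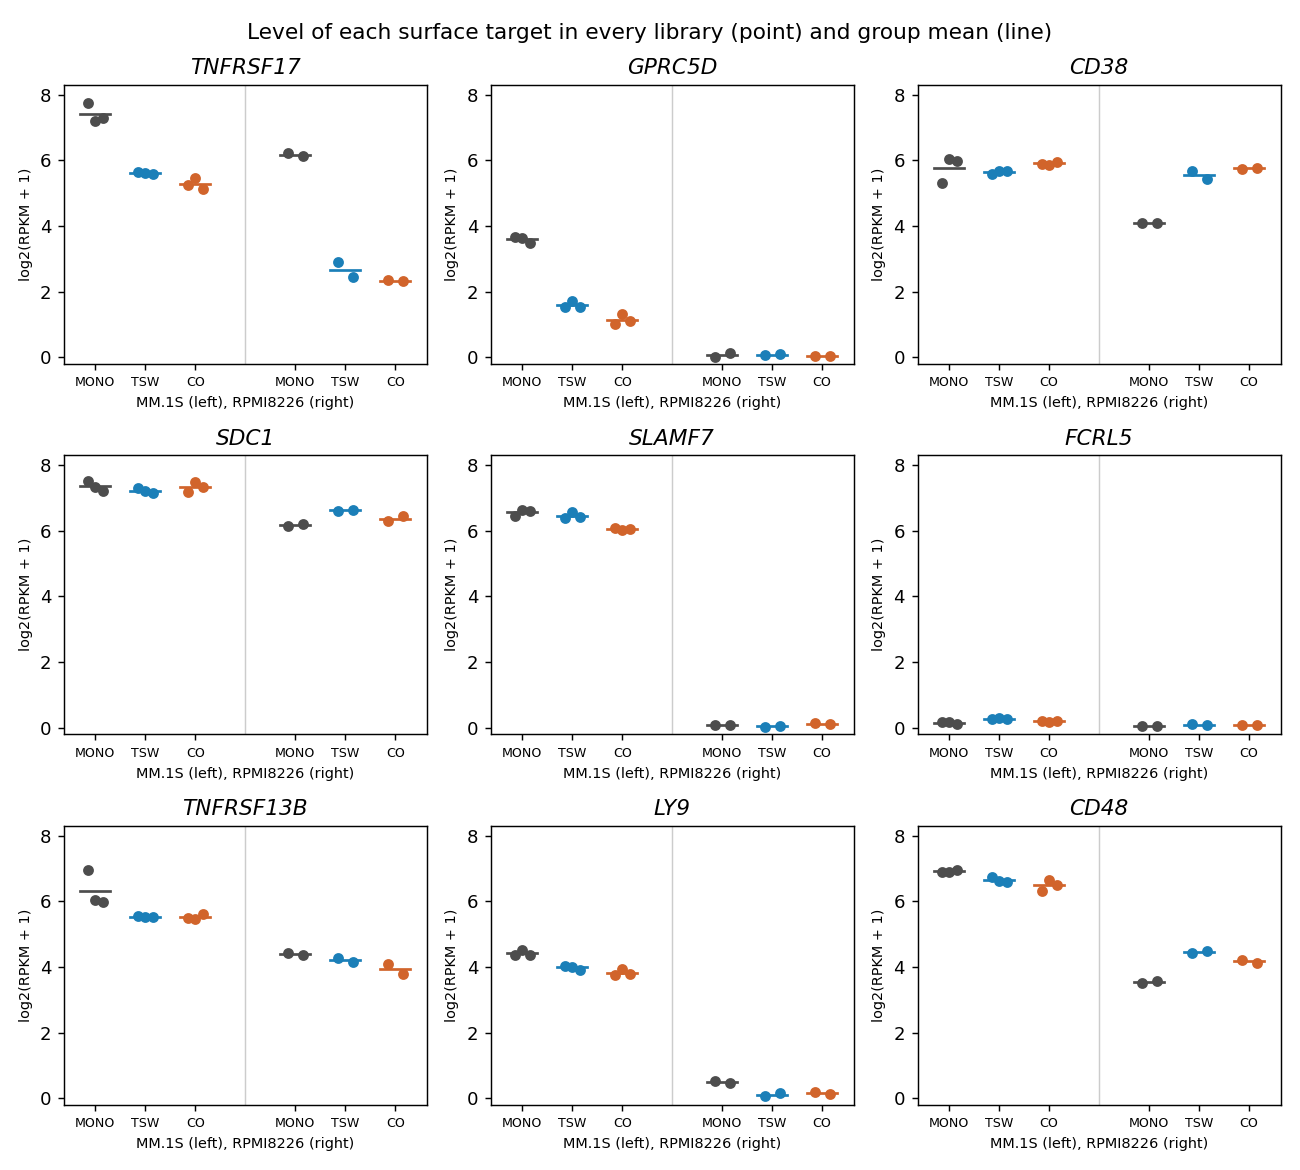
Level of the 9 surface targets on a log2(RPKM + 1) scale in every library (points) with group means (lines), MM.1S on the left and RPMI8226 on the right of each panel. TNFRSF17 was lower in TSW and CO than in MONO of both lines, and GPRC5D, SLAMF7, FCRL5 and LY9 were near 0 in RPMI8226.

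In MM.1S, 3 of the 8 tested members were called lower in TSW than in MONO and 4 of 8 lower in CO than in MONO, with no member called higher. Without MONO replicate 1 these were 2 and 3. The count in TSW was also 2 without any 1 TSW library, and that in CO was 2 without CO replicate 1 and 3 without MONO replicate 2 or CO replicate 3. Over all 10153 tested genes, 4.16% were called lower and 6.48% higher in TSW, and 4.65% lower and 7.13% higher in CO. The median log2 fold change of the tested members was -0.34 in TSW and -0.55 in CO, against 0.01 over all tested genes in both comparisons. In RPMI8226, 2 of the 5 tested members were called higher and 1 lower in each comparison with MONO, and 4 were called in CO without CO replicate 1. There 14.5% of 10319 genes were called higher and 17.9% lower in TSW, and 16.4% higher and 22.9% lower in CO. The balance of these calls depends on scaling: with median-of-ratios scaling 1500 higher and 1852 lower became 1704 and 1558 in TSW, and 1693 and 2363 became 2027 and 1900 in CO. With quantile normalization more were still lower, at 1537 and 1699 in TSW and 1863 and 2095 in CO. The members' median was 0.44 in TSW and 0.19 in CO, beside -0.08 and -0.09 over all tested genes. The median in CO was 0.30 with median-of-ratios scaling, 0.31 with quantile normalization and 0.11 without CO replicate 2. The TSW and CO comparisons of a line share their MONO libraries.

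**Figure D2:**
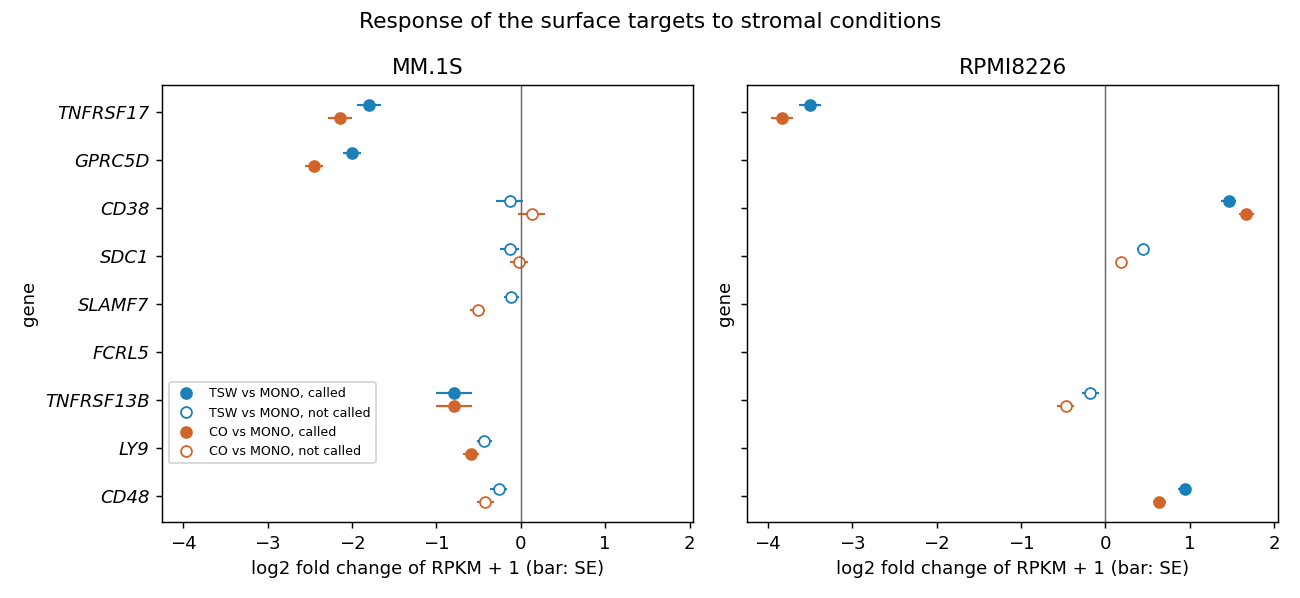
Log2 fold change of RPKM + 1 against MONO for each member, with bars for the standard error from limma; filled points were called and open points were not, and members below the filter have no point. TNFRSF17 reached -2.14 in MM.1S CO and -3.83 in RPMI8226 CO, and CD38 rose to 1.67 in RPMI8226 CO.

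TNFRSF17, the receptor BCMA (Entrez 608, chr16:11965210-11968068), fell in both lines. In MM.1S it was at 216.0, 144.9 and 157.1 RPKM in the MONO libraries, 47.4 to 49.2 in the 3 TSW libraries, and 36.8, 42.7 and 34.1 in CO. All 6 libraries with stroma lay below all 3 without it. The level in TSW was 0.279 times that of MONO (log2 fold change -1.80 ± 0.14 SE, limma adjusted p = 7.19e-06), and in CO 0.219 times (-2.14 ± 0.14, adjusted p = 1.71e-06). Without MONO replicate 1, the highest library, the log2 fold changes were -1.63 and -1.97. In RPMI8226, TNFRSF17 was at 73.0 and 68.8 RPKM in MONO, 6.40 and 4.43 in TSW, and 4.13 and 3.96 in CO. The groups with stroma again lay below MONO without overlap, at 0.0764 times in TSW (-3.50 ± 0.13, adjusted p = 8.12e-09) and 0.0571 times in CO (-3.83 ± 0.13, adjusted p = 3.9e-09).

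TNFRSF13B, the receptor TACI (Entrez 23495, chr17:16939081-16972118), was at 122.4, 65.1 and 61.7 RPKM in MM.1S MONO, 45.8, 44.8 and 45.2 in TSW, and 44.0, 43.2 and 48.5 in CO. MONO replicate 1 was far above its group, and the other MONO libraries also lay above every library with stroma. The log2 fold change was -0.79 ± 0.21 in TSW (limma adjusted p = 0.017) and -0.79 ± 0.21 in CO (adjusted p = 0.0154). Both calls rest on MONO replicate 1: without it each log2 fold change was -0.48, below the fold threshold, with adjusted p = 0.000661 and 0.000644. The call in TSW was also lost when any 1 TSW library was left out, with log2 fold changes of -0.80 to -0.78 and adjusted p from 0.0503 to 0.0554, and the call in CO without CO replicate 1, at -0.77 with adjusted p = 0.0562. In RPMI8226, TNFRSF13B was at 20.4 and 19.8 RPKM in MONO, 18.4 and 16.9 in TSW, and 15.9 and 12.8 in CO. It was not called there, at -0.18 ± 0.10 in TSW and -0.47 ± 0.10 in CO (adjusted p = 0.139 and 0.00183), although the groups did not overlap; without CO replicate 1 the value in CO was -0.62 and passed the threshold.

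The ratio of TNFRSF17 to TNFRSF13B within a library compares both receptors on the RPKM scale. In MM.1S it was 1.76, 2.23 and 2.55 in MONO, 1.08, 1.07 and 1.05 in TSW, and 0.837, 0.987 and 0.703 in CO. In RPMI8226 it was 3.57 and 3.48 in MONO, 0.349 and 0.262 in TSW, and 0.260 and 0.310 in CO. TNFRSF17 thus exceeded TNFRSF13B in all 5 MONO libraries, and TNFRSF13B exceeded TNFRSF17 in all 4 RPMI8226 libraries with stroma and in the 3 MM.1S CO libraries. The MM.1S TSW libraries lay just above equality.

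**Figure D3:**
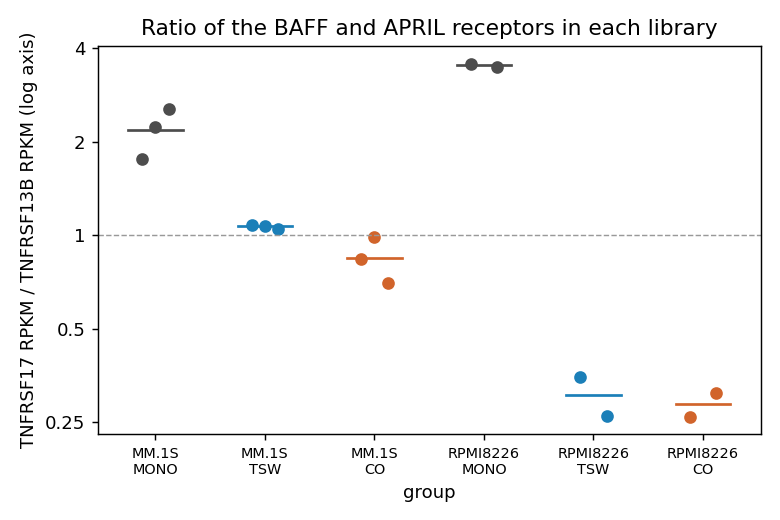
Ratio of TNFRSF17 RPKM to TNFRSF13B RPKM in each library on a log axis, with group means as lines and equality as a dashed line. The RPMI8226 groups went from a mean of 3.53 in MONO to 0.305 in TSW and 0.285 in CO.

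Of the ligands and the remaining receptor of this axis, 1 of 3 passed the filter in each line. TNFSF13, which encodes APRIL, was lower in MM.1S TSW, at 1.42 against 3.7 RPKM in MONO (log2 fold change -0.94, adjusted p = 0.0029), and in CO at 2.02 RPKM (-0.61, adjusted p = 0.0231). The call in CO was lost without MONO replicate 2 (-0.48), MONO replicate 3 (-0.55), CO replicate 1 (-0.59) or CO replicate 2 (-0.56). In RPMI8226 it had 6.35 RPKM in MONO, 7.32 in TSW and 8.0 in CO and was not called. TNFSF13B, which encodes BAFF, and TNFRSF13C, the BAFF receptor, were below the filter in both lines, under 1 RPKM in every library. TNFSF13B had 16 read pairs over MM.1S MONO, 71 over TSW and 77 over CO, or means of 0.137, 0.557 and 0.567 RPKM, and both groups with stroma lay above MONO without overlap. In RPMI8226 it had 1 read pair over both MONO libraries, 13 and 17 in the TSW libraries, and 6 and 21 in the CO libraries, which lay apart at 0.123 and 0.373 RPKM. No test was made. Of the 6 gamma-secretase genes, 5 were tested in each line. Over all tested genes of MM.1S, 6.48% were called higher and 4.16% lower in TSW, and 7.13% and 4.65% in CO. In RPMI8226 these shares were 14.5% and 17.9% in TSW, and 16.4% and 22.9% in CO. In MM.1S limma called 0 of these 5 genes in TSW and 0 in CO, with 1 at an unadjusted p under 0.05 in each and 0 called by voom. This was APH1A, which was called lower in CO without MONO replicate 3 (-0.60 against -0.53). In RPMI8226, PSENEN, a subunit of the complex, rose in TSW (45.8 to 73.1 RPKM, log2 fold change 0.66), and in CO NCSTN, the subunit nicastrin, rose (0.63) while the subunit gene APH1A fell (-0.59). With median-of-ratios or quantile scaling, 2 of these genes were called higher and 0 lower in RPMI8226 CO, so the call of APH1A was lost, and in TSW 2 were called higher in place of 1. The call of APH1A was also lost without MONO replicate 2 (-0.57) or CO replicate 1 (-0.49), and that of NCSTN without MONO replicate 1 (0.58) or CO replicate 1 (0.58). In TSW NCSTN was called higher without MONO replicate 2 (0.59) or TSW replicate 1 (0.60), against 0.55.

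GPRC5D, the orphan receptor (Entrez 55507, chr12:12940575-12952170), was measured at an appreciable level in MM.1S only, where it was at 11.6, 11.3 and 10.2 RPKM in MONO, 1.89, 2.28 and 1.88 in TSW, and 1.02, 1.48 and 1.13 in CO. The 3 groups did not overlap. The level was 0.183 times that of MONO in TSW (log2 fold change -2 ± 0.11, limma adjusted p = 5.4e-07) and 0.11 times in CO (-2.45 ± 0.11, adjusted p = 6.82e-08), and without MONO replicate 1 the log2 fold changes were -1.96 and -2.41. In RPMI8226 the gene had 5 read pairs over both MONO libraries, 8 over TSW and 3 over CO, which gave pooled RPKM of 0.0448 (exact Poisson 95% interval 0.0146 to 0.105), 0.0536 (0.0232 to 0.106) and 0.0209 (0.00431 to 0.0611). These intervals cover counting error only and overlap, so a difference was not detectable at this depth. The other GPRC5 family genes, GPRC5A, GPRC5B and GPRC5C, did not pass the filter in either line.

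CD38, the ectoenzyme (Entrez 952, chr4:15778328-15853232), differed between the lines in its response. In MM.1S it was at 38.4, 65.0 and 61.6 RPKM in MONO, 46.9, 50.0 and 49.7 in TSW, and 58.1, 57.4 and 61.4 in CO. MONO replicate 1 was the lowest of all 9 libraries, and the MONO range covered both other groups. The log2 fold changes of -0.13 ± 0.16 in TSW and 0.13 ± 0.16 in CO were not called (limma adjusted p = 0.577 and 0.545). Without MONO replicate 1 they were -0.37 (adjusted p = 0.00276) and -0.10 (adjusted p = 0.292), neither past the fold threshold. In RPMI8226, CD38 was at 16.0 and 16.0 RPKM in MONO, 49.6 and 42.0 in TSW, and 52.2 and 53.7 in CO. Every library with stroma was above both MONO libraries, at 2.86 times in TSW (1.46 ± 0.09, adjusted p = 2.21e-07) and 3.31 times in CO (1.67 ± 0.09, adjusted p = 6.1e-08). The RPMI8226 level with stroma lay in the range of the MM.1S libraries, although levels of the lines come from separate tables. Sorting on the CD38 protein was applied to the cells of these libraries, and its part in the CD38 transcript level was not tested.

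Of the 8 genes of NAD and adenosine metabolism listed beside CD38, 5 were tested in each line. Over all tested genes of MM.1S, 6.48% were called higher and 4.16% lower in TSW, and 7.13% and 4.65% in CO. In RPMI8226 these shares were 14.5% and 17.9% in TSW, and 16.4% and 22.9% in CO. NAMPT, the rate-limiting enzyme of NAD salvage, rose in RPMI8226 from 18.6 RPKM in MONO to 41.8 in TSW (log2 fold change 1.10, adjusted p = 0.000167) and 68.3 in CO (1.82, adjusted p = 3.18e-06), and was the 1 gene of this list that limma called there in each comparison with MONO. Voom called 2 of 5 in each. Without MONO replicate 2 the log2 fold change of ENTPD1, another gene of the list, was -0.60 in CO against -0.54. NAMPT was also called higher in CO than in TSW (0.72, adjusted p = 0.00975), a call lost without TSW replicate 2 (0.42) or CO replicate 1 (0.61). In MM.1S limma called 0 of 5 in TSW and 0 of 5 in CO, with 2 at an unadjusted p under 0.05 in each, and voom called 0 and 1. NT5E, a gene of the list below the filter in MM.1S, was at 1.55 RPKM in MONO, 0.567 in TSW and 0.872 in CO. Both groups with stroma lay below MONO without overlap, and NT5E was not tested there. PECAM1, also below the filter, was at 0.570, 0.758 and 0.551 RPKM. NAMPT was at 0.58 in MM.1S CO and was called higher without MONO replicate 1 (0.59), MONO replicate 3 (0.69) or CO replicate 2 (0.67).

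Promoter windows, 250 bases before to 50 bases after the gene start, were given in the RefSeq-derived table of the GRCh38.p14 assembly for 6 of the 9 members; TNFRSF17, SLAMF7 and LY9 had no entry. Those of GPRC5D and CD38 are shown because these members moved most among those with an entry. Motifs searched on both strands were TTCNNNGAA (STAT), TGANTCA (AP-1), TGATGNAAT (ATF-CEBP), GAAANNGAA (ISRE core) and GGGANTTTC (NF-kappaB), and capitals mark each match. The promoter of GPRC5D is at chr12:12952121-12952420 on the reverse strand and that of CD38 at chr4:15778078-15778377 on the forward strand, both written 5′ to 3′ of the gene.
GPRC5D: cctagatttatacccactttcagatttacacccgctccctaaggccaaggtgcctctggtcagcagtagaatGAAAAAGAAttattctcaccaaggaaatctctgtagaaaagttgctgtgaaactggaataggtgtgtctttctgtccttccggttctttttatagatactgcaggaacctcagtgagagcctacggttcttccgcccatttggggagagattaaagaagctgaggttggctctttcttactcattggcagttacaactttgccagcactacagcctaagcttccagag
CD38: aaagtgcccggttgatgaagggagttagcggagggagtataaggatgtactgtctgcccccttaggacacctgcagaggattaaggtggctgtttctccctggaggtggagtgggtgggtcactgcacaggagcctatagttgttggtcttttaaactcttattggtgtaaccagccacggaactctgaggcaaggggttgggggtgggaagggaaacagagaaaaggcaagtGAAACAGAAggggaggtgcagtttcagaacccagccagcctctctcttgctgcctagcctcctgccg
Each holds 1 match of GAAANNGAA, which begins 178 bases before the start of GPRC5D and 17 bases before that of CD38. Of 21361 promoter windows of genes in the tables, 7.03% hold these letters, 6.85% the STAT letters, 6.14% the AP-1 letters, 1.18% the NF-kappaB letters and 0.651% the ATF-CEBP letters. The windows of SDC1, FCRL5, TNFRSF13B and CD48 hold none of the 5 motifs. A match is a description of the letters only.

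SDC1, or CD138 (chr2:20200797-20225475), kept a high level in every group. In MM.1S it was at 183.5, 161.4 and 146.2 RPKM in MONO, 156.7, 146.7 and 142.6 in TSW, and 144.6, 178.7 and 161.1 in CO. The 3 groups overlapped, and the log2 fold changes of -0.13 and -0.02 (± 0.11 SE each) were not called (limma adjusted p = 0.401 and 0.907). The sign in CO turned under quantile normalization (0.16). In RPMI8226, SDC1 was at 70.4 and 73.2 RPKM in MONO, 96.4 and 98.7 in TSW, and 77.6 and 86.6 in CO. These groups did not overlap, but the log2 fold changes of 0.44 ± 0.07 in TSW (adjusted p = 0.000374) and 0.19 ± 0.07 in CO (adjusted p = 0.0375) were under the fold threshold.

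Of 12 genes for syndecans, their shedding and heparan sulfate synthesis, 10 were tested in MM.1S and 9 in RPMI8226. In MM.1S, SDC2, another syndecan, fell from 7.07 RPKM in MONO to 1.74 in TSW (log2 fold change -1.56) and 1.75 in CO (-1.56), and SDCBP, the syndecan-binding adaptor syntenin, rose from 29.3 to 45.4 (0.62) and 44.7 RPKM (0.60). The SDCBP calls in MM.1S sat at the fold threshold: the call in TSW was lost without MONO replicate 1 (0.58) or 2 (0.55), and the call in CO without MONO replicate 1 (0.56), MONO replicate 2 (0.53), CO replicate 1 (0.57) or CO replicate 2 (0.58). SDCBP also rose in RPMI8226, from 20.5 RPKM to 41.1 in TSW (0.97) and 58.9 in CO (1.48), with EXT2, a heparan sulfate polymerase, in TSW (0.61). The most abundant gene of the list in both lines was ADAM10, a membrane sheddase, at 75.0 RPKM in MM.1S MONO and 68.4 in RPMI8226 MONO, and it was not called. Without MM.1S MONO replicate 1, ADAM10 was called lower there in TSW (-0.68 against -0.41) and CO (-0.69 against -0.41). MMP14, a membrane protease, passed the filter in both lines through its CO libraries, so its calls in CO follow from the filter and are not given. It had 0 read pairs in MM.1S TSW against 781 over the CO libraries, at least 244.9-fold higher against a floor of 3 read pairs over the group, and in RPMI8226 it was at 0.0915 RPKM in MONO and 3.94 in CO. SDC4 likewise passed in RPMI8226 only through CO, at 0.803 RPKM in MONO, 1.09 in TSW and 2.12 in CO. MMP14 moved with the stromal markers given below.

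Of the SLAM family members, SLAMF7, the target of elotuzumab (Entrez 57823, chr1:160739057-160754821), was at 86.5, 99.0 and 96.6 RPKM in MM.1S MONO, 83.4, 93.9 and 84.4 in TSW, and 66.9, 64.7 and 64.9 in CO. TSW overlapped MONO, and every CO library lay below both. Its log2 fold change was -0.11 ± 0.09 in TSW (limma adjusted p = 0.389) and -0.51 ± 0.09 in CO (adjusted p = 0.00188), the latter under the fold threshold. In RPMI8226 the gene had 4 read pairs over MONO, 3 over TSW and 9 over CO, with pooled RPKM of 0.0499 (95% interval 0.0136 to 0.128), 0.0280 (0.00578 to 0.0819) and 0.0873 (0.0399 to 0.166). No difference was detectable at this depth.

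LY9, a homophilic SLAM receptor also named CD229 (Entrez 4063, chr1:160796174-160828255), was at 19.4, 22.1 and 19.5 RPKM in MM.1S MONO, 15.4, 15.1 and 14.1 in TSW, and 12.6, 14.3 and 12.7 in CO. Both groups with stroma lay below MONO and overlapped each other. The log2 fold change was -0.43 ± 0.09 in TSW (limma adjusted p = 0.00688, under the fold threshold) and -0.59 ± 0.09 in CO (adjusted p = 0.00107, called). The call in CO sat at the fold threshold and was lost without MONO replicate 2 (-0.53), CO replicate 1 (-0.56) or CO replicate 3 (-0.56). In RPMI8226 LY9 was below the filter, with 21 and 21 read pairs in MONO, 3 and 7 in TSW, and 8 and 7 in CO. The pooled RPKM was 0.404 (95% interval 0.291 to 0.547) in MONO, 0.0720 (0.0345 to 0.132) in TSW and 0.112 (0.0628 to 0.185) in CO, so the MONO interval lay above both others, and no test across libraries was made.

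CD48, the GPI-anchored ligand of CD244 (Entrez 962, chr1:160678746-160711822), was at 118.9, 117.9 and 121.9 RPKM in MM.1S MONO, 107.2, 98.4 and 94.6 in TSW, and 78.9, 100.4 and 89.4 in CO. Each library with stroma lay below MONO, and TSW and CO overlapped. The log2 fold changes of -0.26 ± 0.10 in TSW and -0.42 ± 0.10 in CO were not called (limma adjusted p = 0.0842 and 0.0111, the second under the fold threshold). In RPMI8226, CD48 was at 10.3 and 10.9 RPKM in MONO, 20.7 and 21.6 in TSW, and 17.6 and 16.5 in CO. Here the libraries with stroma lay above MONO, at 2 times in TSW (0.94 ± 0.08, adjusted p = 2.99e-06) and 1.61 times in CO (0.64 ± 0.08, adjusted p = 3.46e-05). CD48, SLAMF7 and LY9 lie side by side on chromosome 1 within 150 kb, 27.2 kb and 41.4 kb apart, so the genes of this cluster had unlike levels in RPMI8226.

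Of the 12 other SLAM family receptors and adaptors, 5 were tested in MM.1S and 4 in RPMI8226, and 1 was called in each comparison with MONO. Over all tested genes of MM.1S, 6.48% were called higher and 4.16% lower in TSW, and 7.13% and 4.65% in CO. In RPMI8226 these shares were 14.5% and 17.9% in TSW, and 16.4% and 22.9% in CO. PTPN11, the phosphatase SHP-2, was called higher in MM.1S TSW (22.0 to 35.2 RPKM, log2 fold change 0.71) and CO (35.0 RPKM, 0.70). Both calls rest on MONO replicate 1, the lowest library at 13.7 RPKM: without it the log2 fold changes were 0.42 and 0.41, under the fold threshold. They were also lost without any 1 TSW library (0.70 to 0.72, adjusted p = 0.062 to 0.0691), and without CO replicate 1 (0.70, adjusted p = 0.0662) or 3 (0.66, adjusted p = 0.0771). PTPN6, the phosphatase SHP-1, was called higher in RPMI8226 TSW (2.17 to 8.46 RPKM, 1.57) and CO (7.72 RPKM, 1.46). CD244, the receptor of CD48, had 0 read pairs in every RPMI8226 library and 0.520 to 0.591 RPKM as group means in MM.1S.

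FCRL5 (Entrez 83416, chr1:157513377-157552515) was below the filter in both lines. MM.1S had 6, 13 and 6 read pairs in MONO, 15, 18 and 15 in TSW, and 13, 10 and 11 in CO, or pooled RPKM of 0.112 (95% interval 0.0726 to 0.166), 0.209 (0.154 to 0.277) and 0.139 (0.0965 to 0.195). TSW was above MONO without overlap in RPKM, and their intervals overlapped between 0.154 and 0.166. Overlap of separate intervals does not test the difference, and no such test was made. RPMI8226 had 4, 13 and 10 read pairs in MONO, TSW and CO, with intervals that overlapped. Among the 7 other Fc receptor-like genes, 1 passed the filter in RPMI8226, FCRL2, with 5 read pairs over MONO, 2013 over TSW and 2251 over CO. The ratio of RPKM was 301.2 in TSW (95% counting interval 128.9 to 928.8) and 349.9 in CO (149.7 to 1078.7), and FCRL2 passed the filter only through these groups, so a difference follows from the filter and its test is not given. Below the filter in RPMI8226, FCRL3 had 2 read pairs over MONO, 215 over TSW and 289 over CO. FCRL1 had 6, 59 and 153 there, while FCRL6 went the other way with 9, 1 and 2. No test is given for these. In MM.1S, 1 of these 7 genes was tested: FCRLA fell in CO (6.31 to 3.71 RPKM, log2 fold change -0.63; call lost without MONO replicate 1 or CO replicate 2, at -0.58 each) and was at 5.17 RPKM in TSW, where limma called 0, with 0 at an unadjusted p under 0.05 and 0 called by voom.

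Direct coculture and transwell were also compared with each other. In MM.1S limma called 0 of 8 members between CO and TSW, with 3 at an unadjusted p under 0.05 and 0 called by voom; over all tested genes 0.374% were called higher and 0.0394% lower in CO. The 3 were TNFRSF17 (log2 fold change -0.35), GPRC5D (-0.45) and SLAMF7 (-0.41). In RPMI8226 limma also called 0 of 5, with 5 at an unadjusted p under 0.05 and 0 called by voom, beside 1.90% of genes higher and 2.39% lower. SDC1 (-0.25) and CD48 (-0.29) had adjusted p of 0.03 and 0.0207 there and were under the fold threshold. Median-of-ratios scaling moved the median log2 fold change of all genes for CO against MONO in RPMI8226 from -0.09 to 0.01. With it the calls over all genes between CO and TSW in RPMI8226 moved from 196 higher and 247 lower to 242 and 176, and with quantile normalization to 261 and 176.

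Whether a response differed between the lines was tested as the MM.1S log2 fold change minus that of RPMI8226, over the 9397 genes that passed the filter in each line. Of the 5 members in this test, 4 had an adjusted p under 0.05 for TSW against MONO and 3 for CO against MONO, where 38.5% and 44.5% of all genes did. TNFRSF17 fell further in RPMI8226, with a difference of 1.71 ± 0.22 in TSW (limma adjusted p = 4.86e-05) and 1.69 ± 0.22 in CO (adjusted p = 3.24e-05). CD38 differed by -1.59 ± 0.23 (adjusted p = 0.000117) and -1.53 ± 0.23 (adjusted p = 0.000104), and CD48 by -1.19 ± 0.14 (adjusted p = 1.59e-05) and -1.06 ± 0.14 (adjusted p = 2.86e-05). SDC1 differed in TSW (-0.57 ± 0.15, adjusted p = 0.00959) and not in CO (-0.21, adjusted p = 0.293), and TNFRSF13B passed in neither (-0.61 and -0.32, adjusted p = 0.115 and 0.395). The TNFRSF13B difference turned on single MM.1S MONO libraries. Without replicate 1 it was -0.30 in TSW (adjusted p = 0.0608) and -0.01 in CO (adjusted p = 0.949), and without replicate 3 it passed in TSW (-0.78, adjusted p = 0.0314). For CO against TSW limma found 0 of 5, with 1 at an unadjusted p under 0.05 and voom not run, beside 0.138% of all genes.

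**Figure D4:**
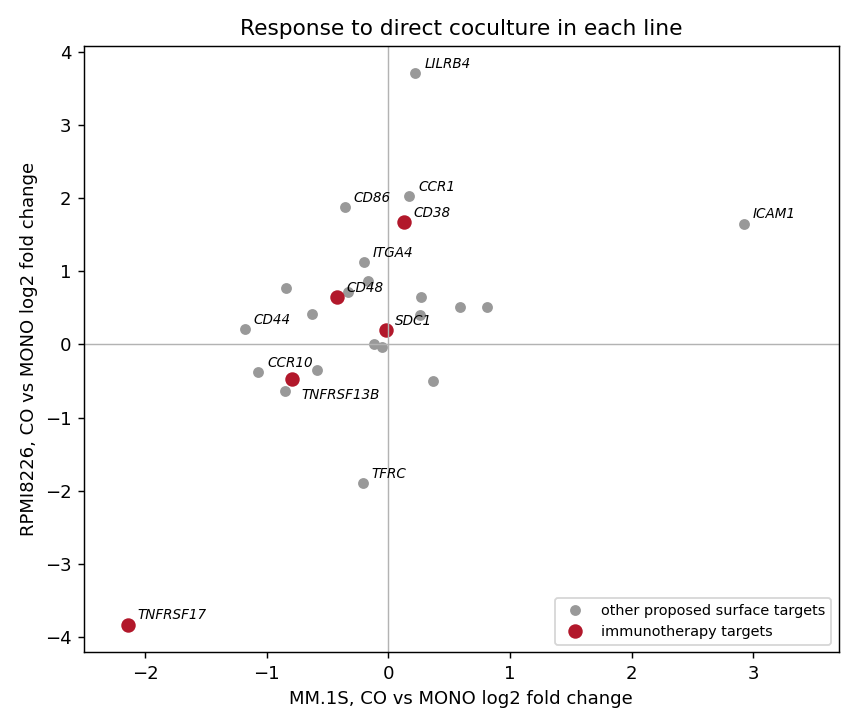
Log2 fold change of CO against MONO in MM.1S (horizontal) and RPMI8226 (vertical) for the members (red) and the other proposed surface targets (grey) tested in both lines; members, and other genes past 1 in either line, are named. TNFRSF17 lay lowest in both lines, at -2.14 and -3.83, and CD38 lay at 0.13 and 1.67.

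Of 32 other proposed surface targets, 23 were tested in MM.1S, where 2 were called higher and 6 lower in TSW, and 2 higher and 7 lower in CO. Over all tested genes, 6.48% were called higher and 4.16% lower in TSW, and 7.13% and 4.65% in CO. The median log2 fold change of these targets was -0.12 and -0.17, beside 0.01 over all genes. With quantile normalization 3 were called higher and 5 lower in TSW, and 2 higher and 5 lower in CO. ICAM1, the adhesion ligand of LFA-1, rose from 3.74 RPKM to 35.3 in TSW and 34.8 in CO. CXCR4, the receptor of CXCL12, fell from 80.5 RPKM to 31.8 and 44.3, CCR10 fell from 15.2 to 6.17 and 6.71, and LAX1, an adaptor, from 18.2 to 8.69 and 8.53. CD44, the hyaluronan receptor, fell from 87.8 RPKM to 49.8 in TSW and 37.9 in CO. The most abundant target of this list was ITGB7, an integrin chain, at 2070.6 RPKM in MONO and 1335.7 in CO, a call lost without MONO replicate 1 (-0.58 against -0.63) or CO replicate 1 (-0.57), and with quantile normalization (-0.36). Without MONO replicate 1, 2 of the list were called higher and 7 lower in TSW, and 2 higher and 6 lower in CO. The count called higher in TSW grew without other MONO libraries. IL6R (0.65 against 0.58) and TNFRSF10B (0.70 against 0.58) were gained without MONO replicate 2. IL6ST (0.89 against 0.64) and TNFRSF10B (0.64) were gained without MONO replicate 3. In RPMI8226, 22 were tested, and calls are counted here over the 19 with 1 RPKM or more in every condition, a choice made after seeing the data. Of these, 8 were called higher and 2 lower in TSW and likewise in CO, with medians of 0.27 and 0.51 beside -0.08 and -0.09 over all tested genes. Of all tested genes, 14.5% were called higher and 17.9% lower in TSW, and 16.4% and 22.9% in CO. CXCR4, 1 of the 2 targets called lower in CO, was not called without MONO replicate 2 (-0.56 against -0.64). LILRB4, an inhibitory receptor, rose from 40.9 RPKM to 456.6 and 541.9, CCR1, a chemokine receptor, from 69.5 to 277.5 and 285.3, and ICAM1 from 59.4 to 197.7 and 188.6. CD86 went from 1.62 RPKM to 5.20 in TSW and 8.61 in CO, with a log2 fold change of 1.87 in CO. The most abundant of the list was CD74, the invariant chain, at 529.7 RPKM in MONO and 904.4 in CO. TFRC, the transferrin receptor, fell from 148.0 RPKM to 52.9 and 38.8. NCAM1, or CD56, was at 10.3 RPKM in MONO, 0.531 in TSW and 0.432 in CO, and passed the filter only through MONO, so its calls follow from the filter. With median-of-ratios or quantile scaling, 10 of the 19 were called higher and 1 lower in RPMI8226 CO.

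Markers of cell type were read beside these results. All 10 plasma cell markers had at least 1 RPKM in every library, with JCHAIN the most abundant. In RPMI8226, 6 of 10 rose (7 with median-of-ratios or quantile scaling) and 1, IRF4, fell in TSW (78.3 to 40.4 RPKM), and in CO 5 rose and IRF4 fell (to 40.8 RPKM). Over all tested genes of this line, 14.5% were called higher and 17.9% lower in TSW, and 16.4% and 22.9% in CO. In MM.1S, 3 markers rose and 1 fell in TSW and 2 rose and 2 fell in CO (2 and 1 with quantile normalization). There the shares over all tested genes were 6.48% higher and 4.16% lower in TSW, and 7.13% and 4.65% in CO. XBP1 and PRDM1, transcription factors of secretory cells, were called higher in TSW and CO of both lines, but without MONO replicate 1 PRDM1 in MM.1S CO was at 0.53 against 0.68 and was not called. Without that library 1 marker rose and 1 fell in MM.1S CO. SSR4 was also called lower in MM.1S TSW without MONO replicate 3 (-0.63 against -0.46). Its call in MM.1S CO was lost without MONO replicate 1 (-0.56 against -0.69) or CO replicate 1 (-0.59, limma adjusted p = 0.0516). JCHAIN fell in MM.1S and rose in RPMI8226. Of the 8 B cell markers, 1 reached 1 RPKM in each library: CD79B in MM.1S and BLK in RPMI8226, where BLK fell in CO from 8.47 to 4.35 RPKM. The B cell antigen gene MS4A1 was at 0 in all 15 libraries.

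Stromal markers were read as a measure of HS5 transcripts in the libraries. Of the 30 on the list, 16 passed the filter in MM.1S and 13 in RPMI8226, but 3 and 4 of these without the CO libraries. Calls in CO therefore follow from the filter for most of them, and the levels are given as a description. In MM.1S the 30 markers summed to 12.2, 15.4 and 15.9 RPKM in MONO, 7.88, 9.21 and 8.83 in TSW, and 163.9, 180.7 and 149.3 in CO, where MMP1 was the most abundant at 44.5, 46.9 and 41.0 RPKM. THY1, which encodes the CD90 sorting marker, was at 0 to 0.0629 RPKM in MONO and TSW of MM.1S and 0.453 to 0.570 in CO. The RPMI8226 libraries had 0.0669 and 0.0282 RPKM of THY1 in MONO, 0 in TSW, and 0.0767 and 0.111 in CO. Its read pairs there summed to 3 in MONO and 8 in CO. In RPMI8226 the sums were dominated by FN1, the fibronectin gene, which was at 4149.8 RPKM in MONO on average. They were 3997.0 and 4316.8 RPKM in MONO, 1686.0 and 1969.6 in TSW, and 2103.7 and 2311.0 in CO, while the markers at 1 RPKM or more went from 4 and 4 in MONO and 5 and 4 in TSW to 15 and 17 in CO. MMP1, MMP2 and COL1A2 had 0 read pairs in MONO and TSW of both lines, while other markers of the list went both ways. From MONO to TSW, LOX went from 0.236 to 0.978 RPKM and TAGLN from 1.34 to 2.40 in RPMI8226. In MM.1S, COL5A1 went from 0.697 to 1.15 RPKM, IGFBP7 from 2.63 to 0.313 and SPARC from 3.78 to 2.28. The part of stromal RNA in the CO values of the members was not tested.

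As a description, the genes most like 3 of the members were found by Pearson correlation of log2(RPKM + 1) over the 15 libraries, with each line's mean subtracted, among 9397 genes. These libraries share conditions, and no test was made. For TNFRSF17 they were CLN6, an endoplasmic reticulum protein gene (r = 0.990), PCP4, a calmodulin regulator (0.987), and SLC4A2, an anion exchanger (0.985). PCP4 went from 442.6 RPKM in MM.1S MONO to 93.1 in TSW and 86.4 in CO, and from 17.2 to 0.349 and 0.0957 in RPMI8226. For CD38 they were SLFN5 (0.983), ARHGEF6 (0.978) and TGOLN2 (0.978), and SLFN5 was at 1.55 RPKM in RPMI8226 MONO, 17.9 in TSW and 20.8 in CO. For GPRC5D, whose pattern is that of MM.1S alone, they were ITM2C (0.992), HOMER3 (0.979) and HLA-DRB5 (0.974). ITM2C was at 291.7 RPKM in MM.1S MONO, 131.4 in TSW and 114.4 in CO. HLA-DRB5 has near-identical relatives, so its value is uncertain. TNFRSF17, GPRC5D, SDC1, SLAMF7 and CD48 overlap other annotated genes that are absent from the tables, and how shared reads were counted is not given in the sources used here.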

How the data were processed

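RNA-seq values of 15 libraries were analysed. The authors aligned paired-end reads to hg38 and counted them per RefSeq gene (the submitters' processing notes name Subread and featureCounts), and the deposited values are log2(RPKM + 1) with 0.0001 added, 1 column per library. Whole read pairs were worked out from the steps between values: 100.0% of 218078 values above 0 were whole within 0.05. Totals ran from 9008909 to 19050586. The planned test assumed RPKM, and the log2 scale of the file was kept.

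Genes that averaged 1 RPKM or more were fitted with limma 3.58.1 (R 4.3.3) with a mean-variance trend, the 3 conditions of a line together, and calls needed an adjusted p under 0.05 and a fold over 1.5. Line differences were interaction contrasts over all libraries. The code was tested on simulated data. Python 3.11.15, numpy 2.4.6, pandas 2.3.3, scipy 1.17.1 and matplotlib 3.10.9 were used for the rest. Alternatives were the pseudocount, filters, scaling, a replicate block, subsets of conditions, the trend, the fold threshold and each library left out, and voom on recovered read pairs, each library left out for the list genes, and counts over list genes that reach the filter in every condition, these last 3 chosen after seeing the data, as were the alternatives of the members' medians. The members and lists were chosen with earlier results of these data known. The rule for named genes was all members, in each list at most the 4 called genes with the largest change per comparison and the most abundant gene, and the 3 genes most like TNFRSF17, GPRC5D and CD38. Other list genes named, such as CD244, THY1 and NCSTN, were chosen after their values were seen or complete a count. Intervals and floors cover counting error only.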

Additional observations from a re-analysis of the deposited data

Results flagged for a closer look

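Responses of 4 members differed between the lines in the limma test of the difference itself, MM.1S minus RPMI8226 on the log2 scale. For TSW against MONO the differences were 1.71 for TNFRSF17, -1.59 for CD38, -1.19 for CD48 and -0.57 for SDC1. For CO against MONO they were 1.69 for TNFRSF17, -1.53 for CD38 and -1.06 for CD48. TNFRSF17 fell in both lines and further in RPMI8226, while CD38 and CD48 were called higher in RPMI8226 only. Without MM.1S MONO replicate 1 the differences for CD38 were -1.82 and -1.77 and those for TNFRSF17 were 1.88 and 1.86. In the same test 38.5% and 44.5% of all genes passed. Single libraries were not tested for outlying values in these groups of 3 or 2, and MM.1S MONO replicate 1 is described in the results.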

How the results depend on the processing

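Of 939 single gene values under the alternatives, 911 kept their direction and side of the threshold, 10 lost a call, 2 gained one and 16 turned sign, each of the last from a value that was not called. The turned values were, for CO against MONO in MM.1S, SDC1 (0.16 with quantile normalization, -0.10 to 0.07 with 1 library left out) and CD38 (-0.10 to 0.27 with 1 left out); for TSW against MONO in MM.1S, CD38 (-0.37 to 0.01); for CO against TSW in MM.1S, TNFRSF13B (0 with median-of-ratios scaling, 0.03 with quantile normalization, -0.05 to 0.03 with 1 left out); and for the line difference of CO against TSW, CD38 (-0.06 to 0.17) and TNFRSF17 (0.03 with a pseudocount of 0.1, -0.24 to 0.21 with 1 left out). The cause was not tested. Members called for CO against MONO in MM.1S were 4, and 2 to 4 with 1 library left out, the lowest without CO replicate 1, when TNFRSF13B and LY9 were lost. With no fold threshold MM.1S had 4 members called for TSW against MONO in place of 3 and 6 for CO against MONO in place of 4, and RPMI8226 had 4 in place of 3, 5 in place of 3, and 2 for CO against TSW in place of 0. The share of all genes called without the fold threshold was not taken. These counts are therefore not read as a result about the members. With 1 library left in a condition, it was assumed to vary like the others. Same-numbered libraries were not treated as pairs: correlations of their deviations were -0.38 to 0.286 in MM.1S, where the own number matched best in 7 of 18 cases. In RPMI8226, with 2 libraries a group, they were all positive, 0.164 to 0.271, and whether its libraries were paired cannot be told from the labels. With the replicate block, members called were 3, 4 and 0 in MM.1S and 3, 3 and 0 in RPMI8226 for TSW against MONO, CO against MONO and CO against TSW, and 4, 3 and 0 for the line differences; calls over all genes went from 1196 to 1209 for CO against MONO in MM.1S and from 4056 to 4059 in RPMI8226. Voom, chosen after seeing the data, gave the same counts of members in the 6 comparisons and 671 in place of 443 calls over all genes for CO against TSW in RPMI8226. Depth limits the members near 0: 3 read pairs on GPRC5D in a single library correspond to 0.0538 RPKM at the mean depth of RPMI8226 MONO.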
